A study of Mus musculus with 21 samples.

Results

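The genes described here are 9 regulators of neuron formation, the transcription factor genes Neurog1, Neurod1, Insm1, Hes6, Hes1, Sox2, Pax6 and Sox11 and the receptor gene Kit. They were taken by name, and all 9 were found among the 23719 genes of both deposited tables of TPM values (reads per transcript length, scaled to the same total in each library). RNA was sequenced from 21 libraries of cells sorted from the mouse main olfactory epithelium. Every mouse carried either tetO-HyperTRIBE_mCherry (HT), an RNA-editing domain with a red marker, or tetO-Mex3a_HyperTRIBE_mCherry (MexHT), the same domain joined to the RNA-binding protein Mex3a. In mice with gg8tTA and OMPtTA, drivers named for genes of immature and of mature olfactory sensory neurons (OSN), the sorted OSN gave 6 MexHT and 3 HT libraries, and the mCherry-negative cells (neg) gave 5 MexHT and 3 HT libraries. In mice with gg8tTA alone, all of them MexHT, the labels call the sorted cells immature OSN, and there were 2 OSN and 2 neg libraries. No library came from a mouse without an editing construct, and the labels used here give no age. The labels describe OSN and neg libraries with the same number as coming from the same mouse, which gives 10 such pairs, and do not say whether a library holds cells of several mice. MexHT OSN replicate 6 has no partner.

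In the olfactory epithelium, neurons are replaced throughout life from basal cells. Horizontal basal cells, which express Sox2 and Pax6, form a reserve, and globose basal cells divide and pass through a Neurog1- and Neurod1-positive stage before they become immature neurons. Notch signalling, read out by the repressor Hes1, holds back the proneural factors, whereas Hes6 counters Hes1. Insm1 is a zinc-finger repressor active for a short time in late dividing precursors, Sox11 is a factor of newly formed neurons, and Kit marks a set of globose basal cells.

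By the GENCODE annotation of GRCm38, Neurog1 lies on chromosome 13 (56250478 to 56252163, minus strand, 1 exon), Neurod1 on chromosome 2 (79452521 to 79456751, minus), Insm1 on chromosome 2 (146221921 to 146225020, plus, 1 exon) and Hes6 on chromosome 1 (91411483 to 91414038, minus). Hes1 lies on chromosome 16 (30064384 to 30067796, plus), Sox2 on chromosome 3 (34650405 to 34652461, plus, 1 exon), Pax6 on chromosome 2 (105668900 to 105697364, plus), Kit on chromosome 5 (75574916 to 75656722, plus, up to 21 exons) and Sox11 on chromosome 12 (27334264 to 27342574, minus, 1 exon). Neurod1 overlaps Cerkl on its own strand and a noncoding gene on the other, Sox2 lies within Sox2ot, and Pax6 overlaps Pax6os1 on the other strand. How the authors assigned shared reads is not given in the sources used here, so these 3 levels are uncertain to that extent. Sox2ot and Pax6os1 did not exceed 0.901 and 1.36 TPM in any library.

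Promoter letters are shown for Neurod1, Sox11 and Kit, which were called higher in MexHT than in HT neurons, and for Neurog1, which precedes Neurod1 in the lineage. They come from RefSeq (GRCm38.p6), in which 7 of the 9 genes matched, without Insm1 and Hes1. Each runs 5′ to 3′ on the gene's strand within the 250 bases before the RefSeq start, ending before any annotated exon of a protein-coding gene. The windows are chr13:56252181-56252430 for Neurog1 (minus), chr2:79456786-79456886 for Neurod1 (minus), chr12:27342719-27342968 for Sox11 (minus) and chr5:75574737-75574915 for Kit (plus). Capitals mark matches, on either strand, to the E box CANNTG bound by proneural factors, the N box CACNAG bound by Hes factors, the RBPJ motif TGGGAA of Notch signalling, and the Sox motif ACAAAG.
Neurog1: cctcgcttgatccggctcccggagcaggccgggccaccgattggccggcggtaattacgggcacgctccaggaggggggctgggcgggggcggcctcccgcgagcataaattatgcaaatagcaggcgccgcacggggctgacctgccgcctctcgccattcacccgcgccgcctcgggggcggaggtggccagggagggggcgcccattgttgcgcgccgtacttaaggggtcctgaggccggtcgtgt
Neurod1: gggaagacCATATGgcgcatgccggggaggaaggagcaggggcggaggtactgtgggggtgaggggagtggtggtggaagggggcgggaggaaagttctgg
Sox11: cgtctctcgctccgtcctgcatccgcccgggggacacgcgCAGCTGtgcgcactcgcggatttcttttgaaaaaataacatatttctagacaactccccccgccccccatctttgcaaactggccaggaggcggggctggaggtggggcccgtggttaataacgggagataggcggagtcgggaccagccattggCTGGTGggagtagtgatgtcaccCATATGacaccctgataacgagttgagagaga
Kit: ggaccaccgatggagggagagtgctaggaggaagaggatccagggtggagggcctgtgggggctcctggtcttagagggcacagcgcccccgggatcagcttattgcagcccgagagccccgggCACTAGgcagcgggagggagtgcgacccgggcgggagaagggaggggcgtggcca
The Neurog1 window held no match to any of these motifs. Neurod1 had 1 E box, which 36.5% of all 32851 promoter windows cut to 101 bases also had. Sox11 had 2 E boxes and 1 N box, against 66.2% and 36.7% of windows of 250 bases with at least 1. Kit had 1 N box, against 28.2% of windows of 179 bases. RBPJ and Sox motifs, present in 21.6% and 16.5% of 250-base windows, were in none of these 4.

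Depth, estimated from the steps between TPM values, was between 7529648 and 15358109 counts per library. Mex3a, the gene in the construct, stood at 328 to 1271 TPM in MexHT OSN and at 24.0 to 61.5 TPM in HT OSN, in the order of the labels. Gap43 of immature neurons was at 515 to 758 TPM in MexHT OSN and 254 to 358 TPM in HT OSN, and at 164 to 496 TPM in MexHT neg and 187 to 272 TPM in HT neg libraries. Omp of mature neurons was at 682 TPM or more in OSN, at 46.9 to 1431 and 1093 to 2159 TPM in the 2 neg groups, and at 53.8 and 164 TPM in the gg8 OSN libraries. Neuronal markers were thus present in both fractions. Of Gap43 and Omp in mice with both drivers, only Gap43 in MexHT mice did not overlap between the fractions. The sum of a longer list of immature OSN markers, given below, did not overlap in either construct. The 2 tables were scaled separately and the library names carry 1 date for each driver setting, so driver, date and table cannot be told apart and no test was made between them. In these sorted pools, fewer cells of a type and less RNA per cell cannot be told apart either. A call means a limma adjusted p under 0.05 (Benjamini-Hochberg over all genes tested), and differences and folds are on the log2(TPM + 1) scale, which understates those of low genes.

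For the groups with both drivers the genes are described in 3 sets. Sox11, Insm1 and Neurod1 were the most abundant of the 9 in MexHT OSN (means of 255, 141 and 122 TPM), at about the level of MexHT neg cells (252, 142 and 114 TPM). In HT mice Sox11 and Insm1 had means of 124 and 69.4 TPM in OSN and 149 and 87.6 TPM in neg cells. Neurod1 had a lower mean in HT OSN (23.3 TPM) than in HT neg cells (62.9 TPM). Hes1, Sox2, Pax6 and Kit were low in OSN of either construct (group means of 5.16 to 14.1 TPM) and higher in neg cells. Neurog1 and Hes6 also had higher means in neg cells, at 27.5 and 177 TPM for MexHT and 10.0 and 129 TPM for HT. Their means in OSN were 15.5 and 86.4 TPM for MexHT and 4.49 and 47.6 TPM for HT. In the order of the 4 group means, the ranges of neighbouring groups parted only for Neurog1 (HT neg above HT OSN), Hes1 (HT neg above HT OSN), Pax6 (MexHT neg above HT neg, and HT neg above HT OSN) and Kit (HT neg above MexHT OSN). All other neighbours overlapped.

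**Figure D1:**
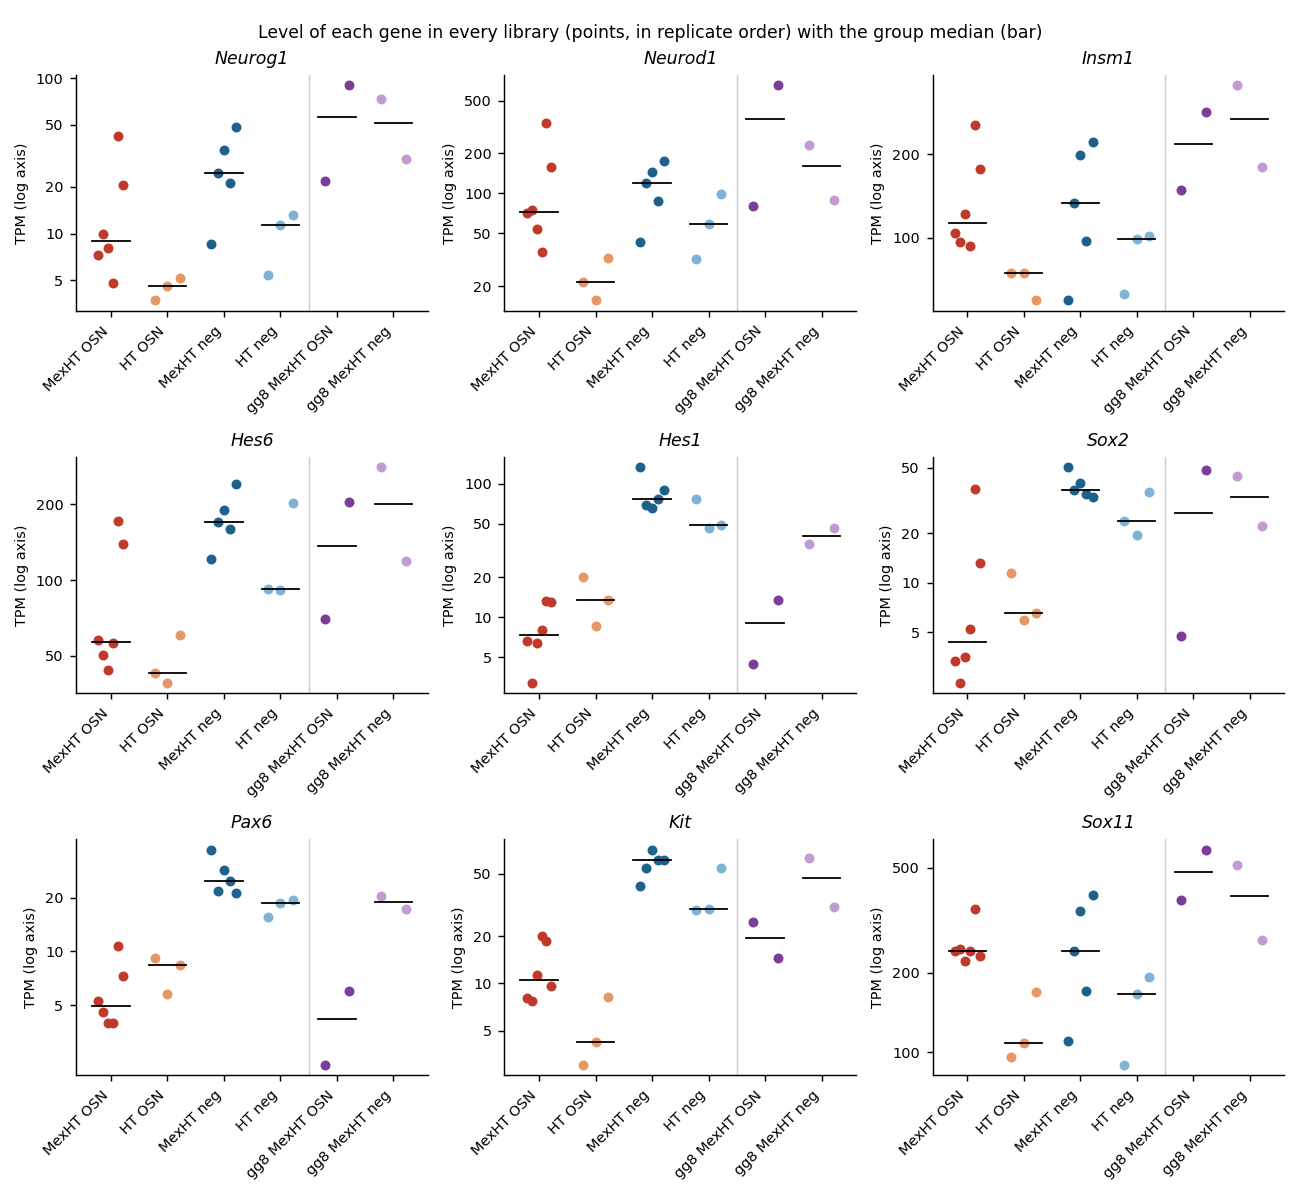
TPM of each gene (log axis) in all 21 libraries, by group, with the group median as a bar; the last 2 groups come from the separately scaled gg8 table. Hes1, Pax6 and Kit are lower in every OSN library than in every neg library of the same construct and drivers, while Neurod1, Insm1 and Sox11 overlap between fractions in MexHT mice.

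The first question was how the sort divided the genes. The same 5 genes, Hes6, Hes1, Sox2, Pax6 and Kit, were called lower in OSN than in neg cells in MexHT mice and in HT mice, and none of the 9 was called higher. Among all genes 63.4% were called in MexHT mice (27.6% lower in OSN) and 11.3% in HT mice (9.11% lower). The median difference of the 9 genes was -1.20 in MexHT and -1.32 in HT mice, against 0.16 and 0.10 over all genes tested. Libraries of the 2 fractions did not overlap for 3 of the 9 genes in MexHT mice, where 43.1% of all genes did not, and for 6 of 9 in HT mice, where 41% did not.

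Hes1, the repressor downstream of Notch, had the largest fall of the 9 genes in MexHT mice. It stood at 3.24, 7.33 and 13.2 TPM (lowest, median and highest of 6) in MexHT OSN and at 132, 68.9, 65.5, 77.5 and 90.0 TPM in MexHT neg replicates 1 to 5. Every OSN library was below every neg library, and the log2 difference was -3.29 (SE 0.30), 9.77-fold lower in OSN (limma adjusted p = 1.32e-06). HT mice had it at 20.2, 8.63 and 13.6 TPM in OSN and at 77.5, 46.9 and 49.0 TPM in neg cells, again without overlap, with a difference of -1.996 (SE 0.33, limma adjusted p = 0.0126). The HT call was lost without HT neg replicate 1 (-1.77, limma adjusted p = 0.0592).

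Kit, the receptor of stem cell factor, fell by 2.18 (SE 0.25) on the log2 scale in MexHT OSN, 4.53-fold, and by 2.68 (SE 0.38) in HT OSN, 6.41-fold (limma adjusted p = 9.43e-06 and 0.00739). Its levels were 7.79, 10.5 and 20.2 TPM (lowest, median, highest) in MexHT OSN and 41.6, 54.2, 71.1, 60.7 and 61.4 TPM in MexHT neg. In HT mice they were 3.04, 4.23 and 8.22 TPM in OSN and 29.2, 29.9 and 54.0 TPM in neg cells. No OSN library reached the lowest neg library in either set of mice. Kit is also a marker of mast cells and of blood progenitors, whose lists moved in the same direction. The mast cell list (7 of 7 genes in the table) summed to 0.131 to 2.65 TPM in MexHT OSN, 2.01 to 5.27 in HT OSN, 32.5 to 48.6 in MexHT neg and 13.8 to 36.6 in HT neg libraries, with Mcpt4, Cma1 and Fcer1a at or under 3 counts in every OSN library of both. The haematopoietic progenitor list (8 of 8) summed to 33.0 to 55.4 and 32.0 to 43.0 TPM in MexHT and HT OSN, and to 1203 to 3009 and 778 to 2601 TPM in the neg groups. Their part in the Kit difference was not tested.

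Sox2 and Pax6, factors of basal and supporting cells, were also lower in OSN. Sox2 stood at 2.46, 4.37 and 37.2 TPM (lowest, median, highest) in MexHT OSN and at 50.2, 36.4, 40.4, 34.4 and 33.4 TPM in MexHT neg libraries, and at 11.5, 5.91 and 6.56 TPM in HT OSN against 23.7, 19.5 and 35.4 TPM in HT neg. In MexHT mice 5 of 6 OSN libraries were below all neg libraries and replicate 5 lay among them, and in HT mice the fractions did not overlap. The differences were -2.34 (SE 0.52, limma adjusted p = 0.00184) and -1.61 (SE 0.31, limma adjusted p = 0.0230). Pax6 stood at 3.94, 4.93 and 10.7 TPM in MexHT OSN and at 37.2, 21.9, 28.8, 24.8 and 21.3 TPM in MexHT neg. In HT mice it was at 9.16, 5.74 and 8.42 TPM in OSN and at 15.7, 18.6 and 19.4 TPM in neg cells, so that no OSN library of either construct reached a neg library. Its differences were -2.05 (SE 0.24, limma adjusted p = 1.25e-05) and -1.12 (SE 0.22, limma adjusted p = 0.0240). In HT mice both calls were lost without HT OSN replicate 2 and without HT neg replicate 1 or 3, and also without HT OSN replicate 3 for Sox2 and replicate 1 for Pax6 (limma adjusted p from 0.0554 to 0.0892), and for Sox2 with all 4 groups in one fit (0.0954).

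Hes6, which opposes Hes1 and is transcribed in differentiating precursors, had the smallest fall of the 5 genes in MexHT mice. It stood at 43.8, 57.0 and 171 TPM (lowest, median, highest) in MexHT OSN and at 121, 171, 190, 160 and 241 TPM in MexHT neg, where 4 of 6 OSN libraries were below all neg libraries. In HT mice the values were 43.0, 39.2 and 60.6 TPM in OSN and 92.5, 91.1 and 202 TPM in neg cells, without overlap. The differences were -1.20 (SE 0.34, limma adjusted p = 0.00875) and -1.34 (SE 0.33, limma adjusted p = 0.0493). The HT call was lost without any 1 of HT OSN replicates 1 to 3 or without HT neg replicate 1 (0.0636 to 0.158), and with another pseudocount, no filter, limma-voom or all 4 groups in one fit (0.0502 to 0.0738).

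Marker sums of several other cell types were higher in neg libraries along with these 5 genes. Horizontal basal cell markers (6 of 6) summed to 14.7 to 30.6 TPM in MexHT OSN and 40.4 to 42.5 in HT OSN, against 278 to 1246 and 181 to 247 TPM in the neg groups. Cycling-cell markers (12 of 12) summed to 186 to 666 and 148 to 201 TPM in OSN, against 696 to 2426 and 638 to 1522 TPM in neg cells. Microvillous and tuft cell markers (6 of 6) summed to 13.5 to 22.5 and 31.4 to 44.8 TPM in OSN, against 126 to 695 and 223 to 352 TPM. Sustentacular cell markers (9 of 9) overlapped between the fractions, at 243 to 819 and 478 to 1959 TPM in OSN and 428 to 2474 and 394 to 821 TPM in neg cells. Macrophage markers (6 of 6) went the other way in HT mice, at 799 to 3551 TPM in OSN and 110 to 212 TPM in neg cells, and overlapped in MexHT mice (162 to 339 and 128 to 382 TPM). Mature OSN markers (12 of 12) overlapped between the fractions, at 2315 to 6868 and 624.7 to 7396 TPM in MexHT mice and 9436 to 14402 and 5596 to 11437 TPM in HT mice. Immature OSN markers (12 of 12) were higher in OSN without overlap in both constructs. They summed to 6295 to 7616 TPM in MexHT OSN and 2690 to 4683 TPM in MexHT neg. In HT mice they summed to 4662 to 4730 TPM in OSN and 3367 to 4293 TPM in neg cells. None of the genes of these lists was at or under 3 counts throughout a group with both drivers. The part of each cell type in the differences was not tested.

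Neurog1, Neurod1, Insm1 and Sox11 were not called between the fractions in MexHT or HT mice. Neurog1, the proneural factor, was at 4.80, 8.96 and 42.2 TPM (lowest, median, highest) in MexHT OSN and at 8.61, 24.5, 34.6, 21.1 and 48.5 TPM in MexHT neg, which overlapped (log2 difference -0.96, SE 0.52, limma adjusted p = 0.122). It was called lower in OSN in the paired fit, which lacks MexHT OSN replicate 6 (-1.11, limma adjusted p = 0.0104). The call also appeared when MexHT OSN replicate 5 (-1.31, 0.0197) or MexHT neg replicate 1 (-1.30, 0.0388) was left out. In HT mice the values were 3.71, 4.61 and 5.15 TPM in OSN and 5.42, 11.4 and 13.2 TPM in neg cells, without overlap (-0.93, SE 0.34, limma adjusted p = 0.114, and 0.0406 in the paired fit).

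Neurod1, its successor in late precursors, was at 36.3, 72.8 and 341 TPM in MexHT OSN and at 43.4, 119, 146, 87.7 and 175 TPM in MexHT neg (-0.18, SE 0.52, limma adjusted p = 0.778). HT mice had it at 21.3, 15.6 and 32.9 TPM in OSN and at 32.1, 58.3 and 98.4 TPM in neg cells, with an overlap at 1 library on each side (-1.32, SE 0.43, limma adjusted p = 0.0898, and 0.0208 in the paired fit). Insm1 differed by 0.042 (SE 0.35) in MexHT and -0.31 (SE 0.21) in HT mice, and Sox11 by 0.15 (SE 0.28) and -0.23 (SE 0.33), each with overlapping fractions. The 95% intervals of Insm1 in MexHT mice ran from -0.72 to 0.80 and those of Sox11 from -0.46 to 0.75, so changes of that size remain possible.

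The fractions were also compared within each mouse. A mouse here means a pair of libraries with the same number, and the labels do not say whether a pair holds cells of several mice. Hes1, Pax6 and Kit were lower in the OSN than in the neg cells of the same mouse in 10 of 10 mice, gg8 mice included, with median differences of -2.71, -1.79 and -2.38. Hes6 and Neurog1 were lower in 9 mice, Sox2 in 8, Neurod1 in 7, Insm1 in 6 and Sox11 in 5. The gg8 mouse 2 was the exception for Hes6 and Neurog1 and 1 of the 2 exceptions for Sox2, with MexHT mouse 5 as the other. In gg8 mouse 2 Neurod1 was 2.86 higher in OSN on the log2 scale, the widest gap in that direction among the 9 genes. The paired fit raised the called genes of the 9 from 5 to 6 in MexHT mice and from 5 to 7 in HT mice, while among all genes the HT calls went from 1923 to 4967.

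**Figure D2:**
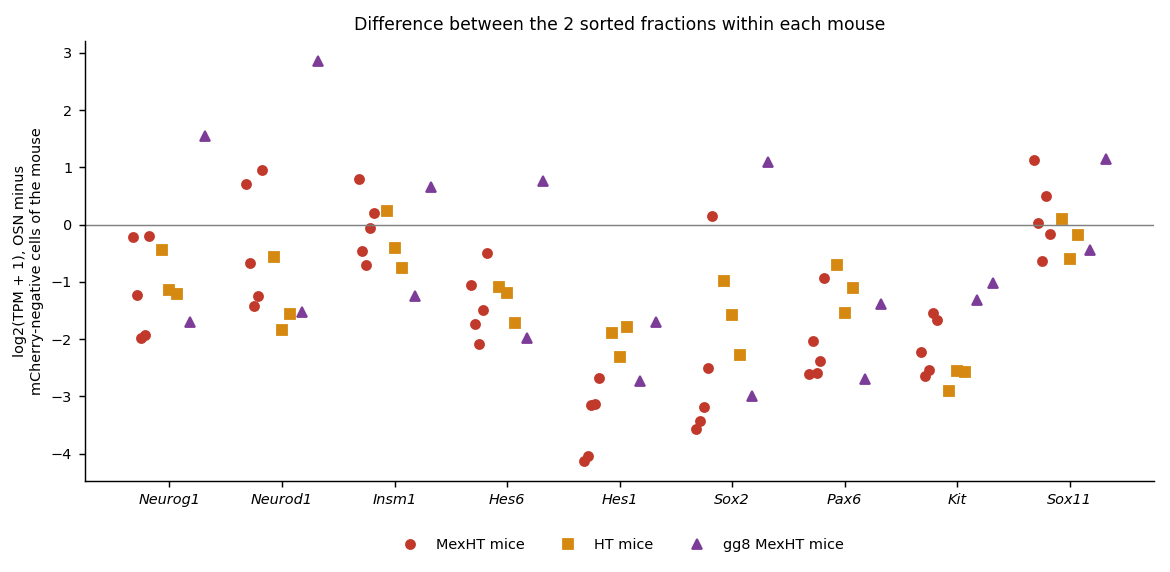
Difference in log2(TPM + 1) between the OSN and the neg cells of each of 10 mice (pairs of libraries with the same number), for each gene. Points below 0 are mice with less in OSN. All mice lie below 0 for Hes1, Pax6 and Kit, and Sox11 lies on either side (5 of 10 below).

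In the gg8 mice, whose sorted cells are labelled immature OSN, 0 of the 9 genes was called (8.32% of all genes were, 7.2% lower in OSN), and 2 of 9, Hes1 and Pax6, had an unadjusted p under 0.05, as had 31.0% of all genes. The spread rested on 2 mice. Hes1 was at 4.47 and 13.6 TPM in OSN replicates 1 and 2 and at 35.6 and 46.3 TPM in neg replicates 1 and 2 (-2.22, SE 0.57, limma adjusted p = 0.0628). It was called in the paired fit (0.0399) and without OSN replicate 1 (-1.51, 0.0469). Pax6 was at 2.31 and 6.03 TPM in OSN against 20.5 and 17.4 TPM (-2.04, SE 0.56, limma adjusted p = 0.0727), and Kit at 24.5 and 14.5 TPM against 62.7 and 30.6 TPM (-1.17, SE 0.49, limma adjusted p = 0.163). These 3 of 9 genes did not overlap between the fractions, whereas 63.6% of all genes did not.

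For the other 6 genes the 2 gg8 mice differed in direction, with less in the OSN than in the neg cells of mouse 1 and more in those of mouse 2. Neurod1 was at 79.9 and 652 TPM in OSN replicates 1 and 2 and at 232 and 88.9 TPM in the neg cells. Neurog1 was at 21.9 and 90.1 TPM against 73.1 and 30.1 TPM, and Sox2 at 4.71 and 48.2 TPM against 44.7 and 22.0 TPM. For all 3, OSN replicate 2 was the highest library and OSN replicate 1 the lowest. Insm1 was at 149 and 285 TPM against 355 and 180 TPM, Hes6 at 70.0 and 204 against 280 and 119 TPM, and Sox11 at 376 and 586 against 513 and 265 TPM. Cycling-cell markers also summed to 193 TPM in OSN replicate 1 and 450 TPM in replicate 2, and mature OSN markers to 947 and 328 TPM. In neg replicates 1 and 2 cycling-cell markers summed to 1470 and 752 TPM, and mature OSN markers to 8068 and 14186 TPM. Mature OSN markers were thus higher in the gg8 neg cells, whereas they overlapped between fractions in mice with both drivers. The part of these markers in the spread and in the gg8 differences was not tested.

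The second question was what the Mex3a part of the construct changed in sorted neurons, MexHT OSN against HT OSN. Neurod1, Insm1, Kit and Sox11 were called higher in MexHT OSN and none of the 9 lower, in a comparison where 36.8% of all genes were called and 19.9% were called higher. The 9 genes had a median difference of 0.92, against 0.03 over all genes tested. Libraries did not overlap for 3 of the 9 (Neurod1, Insm1 and Sox11), against 38.4% of all genes.

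Sox11, the factor of newly formed neurons, was the most stable of the 4. It stood at 222, 241 and 349 TPM (lowest, median, highest) in the 6 MexHT OSN libraries and at 96.0, 109 and 168 TPM in HT OSN replicates 1 to 3, so that all MexHT libraries were above all HT libraries. The log2 difference was 1.06 (SE 0.19, 95% interval 0.64 to 1.48), 2.08-fold (limma adjusted p = 0.00239). Over 17 alternatives the difference ran from 0.89 to 1.30, and it was called in all of them except the fit with Xist as a covariate.

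Neurod1 had the largest difference, 1.98 (SE 0.59, 95% interval 0.67 to 3.29), 3.95-fold (limma adjusted p = 0.0248), with 6 of 6 MexHT OSN libraries above the highest HT OSN library (36.3 to 341 against 15.6 to 32.9 TPM). Insm1 stood at 93.1, 113 and 255 TPM in MexHT OSN and at 74.2, 74.4 and 59.6 TPM in HT OSN, again 6 of 6 above (0.92, SE 0.30, limma adjusted p = 0.0335). Kit, low in both, was 2.21-fold higher in MexHT OSN (1.14, SE 0.36, limma adjusted p = 0.0301), with 4 of 6 libraries above all HT libraries. Neurog1 stood at 4.80 to 42.2 TPM in MexHT OSN and at 3.71, 4.61 and 5.15 TPM in HT OSN. Its difference of 1.23 (SE 0.54) had an adjusted p of 0.0994 with limma, although 5 of 6 libraries were above all HT libraries.

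Of the genes that the sort divided, all but Kit were not called between constructs. Hes1 had a difference of -0.72 (SE 0.39, limma adjusted p = 0.167), Pax6 of -0.39 (SE 0.30, limma adjusted p = 0.333) and Sox2 of -0.15 (SE 0.68, limma adjusted p = 0.882). Hes6 had a difference of 0.66 (SE 0.42, limma adjusted p = 0.235). For Hes1, Sox2 and Pax6, 4 of 6 MexHT OSN libraries were below all HT OSN libraries, and none of the 4 genes parted the groups.

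These calls rested on 3 HT OSN libraries. Without HT OSN replicate 1 or without replicate 2, Sox11 was the only 1 of the 9 still called, and Insm1 was lost without HT OSN replicate 3 or MexHT OSN replicate 6 and with all 4 groups in one fit (0.0632), and Kit without MexHT OSN replicate 4 (0.0511). Without MexHT OSN replicate 5, the highest library for 8 of the 9 genes, the same 4 genes were called, at 1.60 for Neurod1, 0.73 for Insm1, 1.02 for Kit and 0.96 for Sox11. With MexHT OSN replicates 4 to 6 left out together, an alternative added after the data were seen, Neurod1, Insm1 and Sox11 were still called, Kit was lost (0.78, 0.104), and Neurog1 was called higher (0.77, 0.0254) and Hes1 (-1.20, 0.0351) and Sox2 (-1.09, 0.0225) lower. Xist, a transcript of the inactive X chromosome, was at 58.4 to 140 TPM in MexHT OSN and at 0.126 to 60.3 TPM in HT OSN. With its level as a covariate 0 of the 9 genes was called and all-gene calls fell from 5907 to 329, with Sox11 at 1.21 (limma adjusted p = 0.0933) and Neurod1 at 2.36 (0.237), so that the construct and the sex-linked level cannot be told apart here.

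Cell markers also parted MexHT OSN from HT OSN. Mature OSN markers (12 of 12) summed to 2315 to 6868 TPM in MexHT OSN and to 9436 to 14402 TPM in HT OSN. Immature OSN markers (12 of 12) summed to 6295 to 7616 TPM and 4662 to 4730 TPM. Macrophage markers (6 of 6) summed to 162 to 339 TPM and 799 to 3551 TPM, and cycling-cell markers overlapped, at 186 to 666 TPM and 148 to 201 TPM. No marker of these 4 lists was at or under 3 counts throughout either group of OSN libraries, and the part of cell composition in the 4 calls was not tested.

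**Figure D3:**
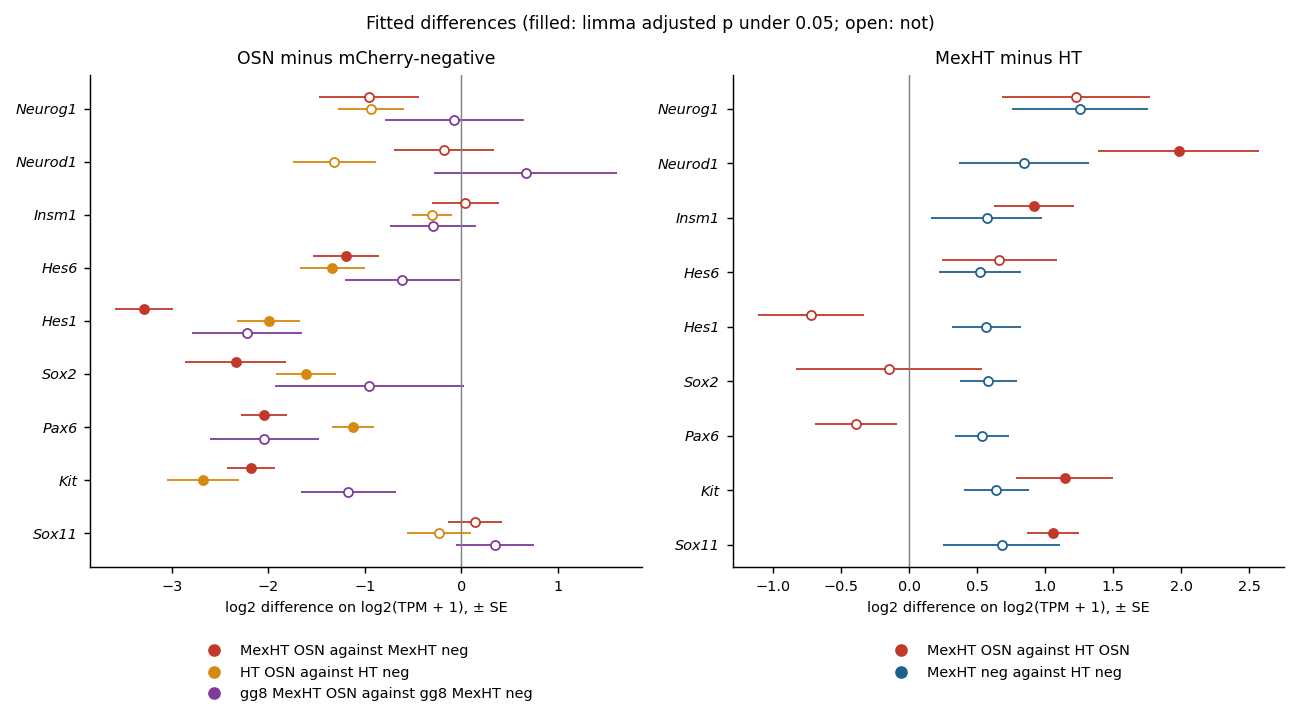
Fitted log2 difference ± SE of each gene, OSN minus neg on the left and MexHT minus HT on the right; filled points were called with limma (adjusted p under 0.05). Hes6, Hes1, Sox2, Pax6 and Kit carry filled points on the left in both MexHT and HT mice, and Neurod1, Insm1, Kit and Sox11 on the right in OSN.

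MexHT and HT were then compared in the cells without mCherry. Here 0 of the 9 genes and 0% of all 16860 genes tested were called, with limma and with limma-voom on recovered counts. At an unadjusted p under 0.05 there were 4 of the 9 (Neurog1, Sox2, Pax6 and Kit) and 3465 of all genes, 20.6%. All 9 genes had differences above 0, from 0.52 for Hes6 to 1.26 for Neurog1, with a median of 0.58 against -0.01 over all genes. Pax6 was the 1 gene of 9 whose libraries did not overlap (21.3 to 37.2 TPM in MexHT neg, 15.7 to 19.4 TPM in HT neg), against 8.71% of all genes. Neurog1 was at 8.61 to 48.5 TPM in MexHT neg and 5.42 to 13.2 TPM in HT neg (1.26, SE 0.50, limma adjusted p = 0.228). Cycling-cell markers summed to 696 to 2426 TPM in MexHT neg and 638 to 1522 TPM in HT neg, and mature OSN markers to 624.7 to 7396 and 5596 to 11437 TPM. Their part in these values was not tested.

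Whether the fall from neg cells to OSN differed between constructs was tested with the interaction of construct and fraction. None of the 9 genes was called, against 12.4% of all genes, and 2 of 9 had an unadjusted p under 0.05, as had 27.9% of all genes. Hes1 differed by -3.29 in MexHT and -1.996 in HT mice, an interaction of -1.29 (SE 0.50, limma adjusted p = 0.0999), which was called in the paired fit, without MexHT OSN replicate 6 (-1.43, 0.0200). Pax6 differed by -2.05 and -1.12, an interaction of -0.92 (SE 0.37, limma adjusted p = 0.117), which was called without MexHT OSN replicate 5 (-1.09, 0.0276). Neurod1 had the largest positive value, 1.14 (SE 0.83, limma adjusted p = 0.401), so a difference between OSN and neg cells in its construct effect was not shown.

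In MexHT OSN most of the 9 genes were highest in the same library. MexHT OSN replicate 5 was the highest of its 6 libraries for 8 of the 9 genes, all but Kit, and replicate 6 was the next highest for 7 of those 8. Relative to the group median, replicate 5 had 8.52 times the Sox2 level, 4.71 times Neurog1, 4.68 times Neurod1, 3.002 times Hes6, 2.26 times Insm1, 2.17 times Pax6, 1.80 times Hes1 and 1.45 times Sox11. Its cycling-cell sum was 2.53 times and its mature OSN sum 0.401 times the group median, and its immature OSN sum was 1.08 times. The ratio of the highest to the lowest library was 15.1 for Sox2 and 9.39 for Neurod1, and 1.58 for Sox11. Over the 3 HT OSN libraries, a smaller set, the ratios ran from 1.25 for Insm1 to 2.70 for Kit, and those of Kit and Sox11 (1.75) were above the MexHT OSN ratios (2.59 and 1.58). In MexHT neg no single library led: Neurog1, Neurod1, Insm1, Hes6 and Sox11 were highest in replicate 5 and Hes1, Sox2 and Pax6 in replicate 1. The part of dividing cells in this spread was not tested.

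**Figure D4:**
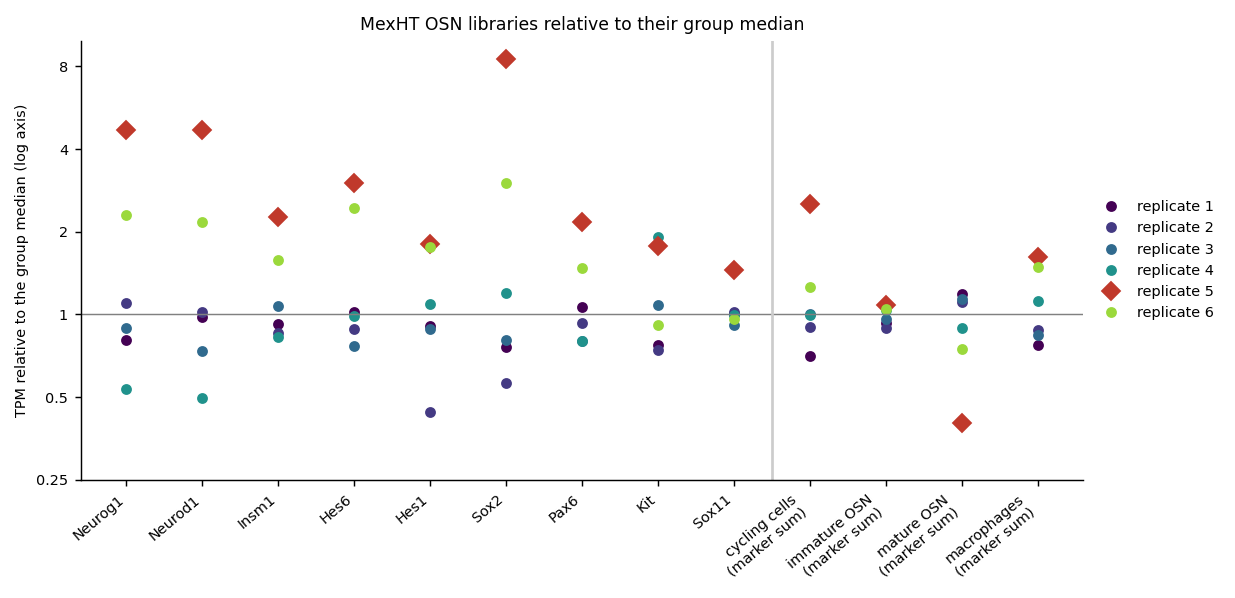
Level of each gene and of 4 marker sums in the 6 MexHT OSN libraries, relative to the group median (log axis). Replicate 5 (diamonds) is highest for every gene except Kit, and it is highest for cycling-cell markers and lowest for mature OSN markers.

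Ratios between genes of 1 library are free of its total. Neurod1 over Neurog1 was 6.68 to 9.82 in MexHT OSN and 3.39 to 6.37 in HT OSN, which did not overlap, and 3.61 to 5.04 in MexHT neg and 5.12 to 7.45 in HT neg. Neurog1 rested on only 22 to 27 counts in HT OSN and on 20 to 290 in MexHT OSN. The gap between 6.37 and 6.68 is small beside the counting error of such values, so little rests on the lack of overlap. Hes6 over Hes1 was 6.77 to 15.6 in MexHT OSN and 2.13 to 4.55 in HT OSN, and 0.913 to 2.91 and 1.19 to 4.13 in the neg groups. In gg8 mice Hes6 over Hes1 was 15.0 and 15.6 in OSN and 2.58 and 7.89 in neg cells. Insm1 over Neurog1 was 6.03 to 19.4 in MexHT OSN and 11.5 to 20.0 in HT OSN, against 4.55 to 6.89 and 7.66 to 11.6 in neg cells. These ratios are a description, with no test.

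Genes most like each of the 9 were sought among 12597 genes, by the root mean square difference of centred log2(TPM + 1) over the 17 libraries with both drivers. Closest to Neurog1 were Stil (0.35), Cep152 (0.39) and Rcor2 (0.43), and to Neurod1 St18 (0.32), Mfng (0.37) and Cep152 (0.41). Stil and Cep152 encode centriole proteins and Mfng a glycosyltransferase that modifies Notch. Closest to Insm1 were Rcc2 (0.28), Hn1 (0.30) and Slc7a1 (0.31), to Sox11 Gdpd1 (0.22), Slc38a1 (0.24) and Hunk (0.25), and to Hes6 Trp53 (0.21), Tmem97 (0.23) and Fam110a (0.25). Closest to Hes1 were Sdc4 (0.32), Zfp36l1 (0.37) and Ackr3 (0.39), to Sox2 Eya4 (0.29), F2r (0.36) and Otx2 (0.37), to Pax6 Six3 (0.25), Marveld3 (0.26) and Mecom (0.26), and to Kit Mapk13 (0.34), Penk (0.35) and Fam117a (0.35). Eya4, Otx2, Six3 and Mecom are themselves transcription factors or cofactors. Among the 9, the nearest pair was Insm1 and Sox11 (0.33), then Neurog1 and Neurod1 (0.42), and the farthest was Hes1 and Sox11 (1.73). All these distances share the same 17 libraries and their depth. They are not scaled to the spread of each gene, so genes that vary little lie nearer to each other. The root mean square spread was 0.63 for Insm1 and for Sox11, 1.06 for Neurog1 and 1.12 for Neurod1.

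The ligands, receptors and modifiers of the Notch pathway (24 of 24 genes tested) were read beside Hes1. In MexHT mice 5 were called higher and 7 lower in OSN (median -0.38, against 0.16 over all genes), where 63.4% of all genes were called, the largest falls being Notch2 (-3.28, SE 0.21), Lfng (-2.63, SE 0.46) and Notch3 (-2.45, SE 0.21). In HT mice 3 were called lower and none higher, namely Notch3 (-1.76, SE 0.33), the ligand gene Dll1 (-2.11, SE 0.28) and Nrarp (-1.28, SE 0.29). Among all genes 9.11% were called lower there. Between constructs in OSN, 6 were called higher in MexHT and 2 lower (median 0.38 against 0.03), where 36.8% of all genes were called, led by Maml3 (1.83, SE 0.34), Mfng (1.80, SE 0.52) and Dll1 (1.46, SE 0.27). The Tle corepressors, partners of Hes factors, had 4 of 6 genes called higher in MexHT OSN than HT OSN and none lower (19.9% of all genes were called higher), with Tle4 at 1.38 (SE 0.18), Tle2 at 1.21 (SE 0.35) and Tle1 at 1.01 (SE 0.17). In gg8 mice, Maml3 (2.37, SE 0.46) and Tle4 (2.34, SE 0.33) were called higher and Notch2 (-2.33, SE 0.47) lower in OSN.

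Of the other bHLH factors, the shared partners of proneural proteins and the Id inhibitors among them (14 genes), 2 of the 12 tested were called higher in MexHT OSN than HT OSN, Tcf3 (0.92, SE 0.17) and Neurod6 (1.36, SE 0.40). Among all genes 19.9% were called higher. In MexHT mice Id3 (-2.34, SE 0.19) and Id1 (-1.24, SE 0.26) were among 5 called lower in OSN, with 3 called higher, out of 11 tested (63.4% of all genes were called). In HT mice Id3 (-2.94, SE 0.54) was the 1 call among 10, where 11.3% of all genes were called. The corepressor partners of Insm1 (12 genes) had 4 of 11 called higher and 1 lower in MexHT OSN than in HT OSN, against 36.8% of all genes called, with Gse1 at 1.14 (SE 0.16), Hdac2 at 1.06 (SE 0.25) and the demethylase gene Kdm1a at 1.01 (SE 0.14). In the sort, MexHT mice had 6 of the 12 called higher and 3 lower in OSN (63.4% of all genes were called), the blood-lineage factors Gfi1b (-2.35, SE 0.52) and Gfi1 (-2.02, SE 0.23) among the lower. In HT mice 1 was called lower, Rcor2 (-1.34, SE 0.32), as were 9.11% of all genes.

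Of the other Sox genes (9 of 11 tested), 6 were called lower and 1 higher in MexHT OSN than in neg cells, and 4 lower in HT OSN. Sox9 was at -3.55 (SE 0.23) and -3.34 (SE 0.40). Among all genes 63.4% were called in MexHT mice (27.6% lower in OSN) and 11.3% in HT mice (9.11% lower). Between constructs in OSN, Sox4, the close relative of Sox11, was the 1 call (0.80, SE 0.18), higher in MexHT (36.8% of all genes were called). Kit signalling genes (15) had 9 called lower and 4 higher in MexHT OSN against neg cells, where 63.4% of all genes were called. The Kit ligand gene Kitl was at -3.07 (SE 0.35) and the kinase gene Lyn at -2.64 (SE 0.20). In HT mice Kitl (-2.16, SE 0.20) and Pik3r1 (-1.19, SE 0.29) were called lower, as were 9.11% of all genes. Between constructs in OSN, 2 were called higher in MexHT and 3 lower, where 36.8% of all genes were called. The lower genes were Lyn (-1.85, SE 0.34), Ptpn6 (-1.11, SE 0.25) and Sh2b3 (-0.88, SE 0.29), which are also known from myeloid cells. Macrophage markers were higher in HT OSN, and their part in these calls was not tested. Factors of later olfactory neurons (11) had 5 called higher in MexHT OSN than HT OSN, led by Tshz1 (0.94, SE 0.17), and 2 lower, Ebf4 (-0.85, SE 0.18) and Ebf2 (-0.74, SE 0.17). Among all genes 36.8% were called in that comparison, 19.9% higher. In the sort, 8 of these 11 were called higher in MexHT OSN, with Emx2 at 1.53 (SE 0.14), where 63.4% of all genes were called. In neg cells no gene of any of these lists was called between constructs, nor was any gene of the whole table.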

How the data were processed

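Per the labels' protocols, cells were freed with papain, RNA was extracted with TRIzol and libraries were made from 10 ng with a strand-preserving kit for small amounts of total RNA. The authors deposited 2 tables of TPM values, 1 for the 17 libraries with both drivers and 1 for the 4 gg8 libraries, each column summing to 1000000. The submitters' processing notes name FastQC, cutadapt, STAR, bedtools and mm10, and the counting program, annotation and use of strand are not given in the sources used here. The 27 rows whose symbols had become dates were left out of tests. The step between values of a gene gave whole counts for 100% of 23614 genes (within 0.01 of a count) and, with those steps, for 99.9% of 22809 gg8 genes (within 0.05), and their totals are the depth. No molecular identifiers are described, so the floor of 3 counts covers counting error only.

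Comparisons were fitted with limma 3.58.1 in R 4.3.3 (empirical Bayes with a mean trend, two-sided) on log2(TPM + 1), using only the libraries compared and genes whose mean reached 1 TPM, with Benjamini-Hochberg adjustment over all of them and a threshold of 0.05. The fit was tested on simulated data with independent noise for each gene. Those data held no pairing of libraries, no shift of a whole library and no link to Xist, so they do not test these features. P-values measure the spread between libraries within a group. The labels say that an OSN and a neg library of 1 number share a mouse, and those fits were repeated with the mouse as a block (the paired fit). Their deviations correlated at 0.17 to 0.47 in HT, -0.11 to 0.42 in MexHT and 0.02 in gg8 mice. OSN and neg libraries with different numbers correlated at -0.39 to 0.23 in HT and -0.31 to 0.33 in MexHT mice. These ranges overlap those of the same number, so the values do not settle the pairing. With 2 libraries a group, the gg8 value for different numbers is the same with the sign turned (-0.02). Same-numbered MexHT neg and HT neg libraries also correlated (0.34, 0.42 and 0.23), and the block changed no call there. Alternatives were another pseudocount (0.1), no filter, the block, median-of-ratios scaling, limma-voom on recovered counts, 1 fit of all 4 groups, Xist as a covariate, leaving out each library and, added after the data were seen, the libraries of the block without the block. The 95% intervals use the moderated t distribution. Genes named beside the 9 are the 3 nearest in pattern with a mean of at least 5 TPM, and from each list every called gene, or the 3 largest where there were more than 3; some of these are not reported here. Gap43, Omp, Xist and Mex3a were named as markers or checks. The 9 genes, lists and tests were chosen with earlier results of these data known. RNA editing was not analysed here.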

Additional observations from a re-analysis of the deposited data

Results flagged for a closer look

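In 2 of 18 sets of libraries, each 1 gene in 1 group of 5 or 6, a single library stood apart by Dixon's test at the 95% level, where chance marks about 1 in 20. Sox2 was at 37.2 TPM in MexHT OSN replicate 5, and its gap to the next library was 0.692 of the whole range, above the critical value of 0.625. Sox11 was at 349 TPM in the same library, with a gap of 0.811 of the range. These gaps are on TPM, and the test was not run on the log2(TPM + 1) scale of the fits. On that scale Sox2 was at 5.26 in replicate 5, 3.83 in the next library and 1.79 in the lowest. Sox11 was at 8.45, 7.95 and 7.80 in the same order. This library also had the highest cycling-cell marker sum (666 TPM) and the lowest mature OSN marker sum (2315 TPM) of its group, and the part of dividing cells was not tested. Without it, the log2 difference between MexHT OSN and HT OSN was -0.61 for Sox2 and 0.96 for Sox11.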

How the results depend on the processing

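Of 864 values of the 9 genes under the alternatives, 776 kept their direction and their side of the threshold, 34 lost a call, 14 gained one and 40 changed sign, none of the 40 with a call. The number of the 9 genes called in MexHT OSN against HT OSN (4) was 5 with the replicate block, which drops MexHT OSN replicates 4 to 6 and whose numbers do not pair these mice (correlations of 0.11, 0.13 and -0.23), 6 with the same 6 libraries and no block (added after the data were seen), 0 with Xist as a covariate and 1 to 4 with a library left out. In HT OSN against HT neg (5) it was 7 with the replicate block, 3 with all 4 groups in one fit and 1 to 5 with a library left out. It was 4 there with the pseudocount of 0.1, without the filter and with limma-voom. In the gg8 mice (0) it was 1 with the replicate block, and 0 to 1 with a library left out, where the lone library is assumed to vary like the others. For the interaction (0) it was 1 with the replicate block and 0 to 1 with a library left out. In MexHT OSN against MexHT neg (5) it was 6 with the replicate block and 5 to 6 with a library left out. In the neg construct comparison it was 0 throughout. On the 6 libraries of the block in MexHT OSN against HT OSN, Hes1 and Sox2 were called lower and Kit was not called. This held with the block (limma adjusted p = 0.0173, 0.0374 and 0.0681) as without it (0.0351, 0.0225 and 0.104), while Neurog1 was called without the block. The block changed no other calls of the 9 genes than those given beside the results.

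The sign changes concern 12 differences, none of them called. With a library left out, Sox2 ran from -0.61 to 0.11 in MexHT OSN against HT OSN. In MexHT OSN against MexHT neg Neurod1 ran from -0.56 to 0.080, Insm1 from -0.23 to 0.24 and Sox11 from -0.12 to 0.34, and Insm1 was -0.044 on the libraries of the replicate block, with or without it, -0.10 with median-of-ratios scaling and -0.047 with limma-voom. In gg8 mice Neurog1 ran from -1.07 to 0.92, Neurod1 from -0.84 to 2.17, Insm1 from -0.78 to 0.19, Hes6 from -1.38 to 0.15, Sox2 from -2.51 to 0.60 and Sox11 from -0.13 to 0.82. For the interaction Neurog1 ran from -0.38 to 0.32 (0.028 with the pseudocount of 0.1, 0.16 with limma-voom) and Hes6 from -0.24 to 0.33 (-0.037 on the libraries of the replicate block, with or without it). The cause was not tested.

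Among all genes, the calls in MexHT OSN against HT OSN (5907) were 3745 without HT OSN replicate 1 and 3886 without replicate 2. In HT mice (1923) they were 1052 with limma-voom and 660 to 4183 with a library left out, and in gg8 mice (1372) they were 646 with the pseudocount of 0.1 and 0 to 3703 with a library left out. In the neg construct comparison (0) they were 24 with all 4 groups in one fit, 1 without the filter and at most 4 with a library left out. For the interaction (2086) they were 1195 without HT neg replicate 2, and 1184 higher and 902 lower became 715 and 1057 with median-of-ratios scaling. That scaling moved the median of all genes in MexHT OSN against MexHT neg from 0.16 to 0.03. The fewest counts behind a value of the 9 genes were 14 for Hes1 and 18 for Sox2, both in MexHT OSN replicate 2.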
